A study of Homo sapiens with 16 samples.

Results

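The genes described here build the kinetochore, the protein machine that ties each chromosome to spindle microtubules, or mark the centromere beneath it, or run the checkpoint that waits for that attachment. There are 46 of them, chosen by name from textbook complexes, with earlier results of these data known. All 46 were listed in each of the 6 comparisons of the study. In total 12069 genes were listed in all 6 and 19315 in at least 1. The measurements are RNA sequencing of total RNA from U2OS, an osteosarcoma line, and HCT116, a colorectal carcinoma line. In each line, cells received siRNA against MYBL1 together with MYBL2 (the double knockdown), MYBL2 alone (siMYBL2), MYBL1 alone (siMYBL1), or a control siRNA (siCtrl), for 48 h. An siRNA is a short RNA duplex that directs the destruction of transcripts it pairs with. There were 8 groups of 2 libraries, described in the study's design as biological replicates. Neither line carries an engineered allele in the labels, and the siCtrl cells share the transfection and the harvest time with the knockdown cells. The sources used here do not give the dose of siRNA or how many duplexes were used for each gene.

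MYBL2, also called B-MYB, is a transcription factor that binds MuvB, a protein complex, at promoters used in G2 and mitosis, and MYBL1, or A-MYB, is its close relative, best known from the testis. MuvB touches DNA at a short element called CHR, the cell cycle genes homology region. Many kinetochore genes are known to be expressed late in the cell cycle. Their proteins assemble in layers, from the histone variant CENP-A outward through the inner and outer kinetochore to a fibrous corona, and the checkpoint proteins dock on the outer layers until microtubules are bound.

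The deposited files hold the authors' DESeq2 results and no values per library, so the value of each library, its depth and an SD between replicates cannot be given. Levels below are the group means of normalized counts that a gene's base mean and fold change imply, on the authors' scale, and errors are the authors' standard errors (SE) of the log2 fold change. The siCtrl level of a member differed between the 3 comparisons of a line by a median ratio of 1.07 in U2OS and 1.08 in HCT116, and by more than 1.2 for CENPN and CENPP in U2OS and CENPO in HCT116. Levels depend on transcript length and are compared here within a gene. MYBL2 stood at 265 normalized counts in the U2OS double knockdown, against 6101 in siCtrl, and at 266 in the HCT116 double knockdown, against 2680 in siCtrl. MYBL1 stood at 112 in the U2OS double knockdown, against 257 in siCtrl, and at 78.8 in the HCT116 double knockdown, against 284 in siCtrl. In the authors' deposited tables MYBL2 and MYBL1 each had an adjusted p under 0.05 wherever they were targeted, alone or together. Of 14 mesenchymal and osteosarcoma markers, 11 to 12 were listed in U2OS (summed base mean 75710 to 85000) and 6 to 8 in HCT116 (1176 to 1569). Of 13 epithelial markers, 5 to 7 were listed in U2OS (summed base mean 48500 to 54320) and 10 in HCT116 (72970 to 83000). COL1A2 and TWIST1 were listed in no U2OS comparison, and CDX1, VIL1 and CDH17 in no HCT116 comparison.

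Most kinetochore genes fell when both MYB factors were depleted. In the authors' deposited tables, at an adjusted p under 0.05 (DESeq2 Wald test, Benjamini-Hochberg over all genes of a comparison), 29 of 46 were lower in the U2OS double knockdown, where 6.06% of all genes were lower, and 29 of 46 in the HCT116 double knockdown, where 4.12% were. None was higher in either line, where 6.55% of all genes were higher in U2OS and 2.82% in HCT116. Knockdown of MYBL2 alone lowered 9 of 46 in U2OS (3.51% of all genes) and 6 of 46 in HCT116 (0.837%). Knockdown of MYBL1 alone lowered 12 of 46 in U2OS (2.27% of all genes), 5 of them at an adjusted p under 0.01, and 0 of 46 in HCT116 (0.144%). In that last comparison 5 of 46 members had an unadjusted p under 0.05 by DESeq2, as did 791 of all 17323 genes. No other tool could be run. No member was higher after either single knockdown. Of all genes, 1.69% were higher after siMYBL2 in U2OS and 0.291% in HCT116, and 3.44% and 0.115% after siMYBL1. The median log2 fold change of the 46 was -0.77 in the U2OS double knockdown and -0.96 in the HCT116 double knockdown, against 0.01 and -0.02 for all genes of the same 2 comparisons. After siMYBL2 it was -0.25 in U2OS and -0.29 in HCT116, and after siMYBL1 it was -0.45 in U2OS and -0.15 in HCT116, with medians of all genes between -0.02 and 0.02. Levels below 50% of siCtrl were reached by 19 members in the U2OS double knockdown and 22 in the HCT116 double knockdown, against 3 in each line after siMYBL2, and 1 in U2OS and 0 in HCT116 after siMYBL1. Below 25% stood 7 members in the U2OS double knockdown and 5 in the HCT116 double knockdown.

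**Figure D1:**
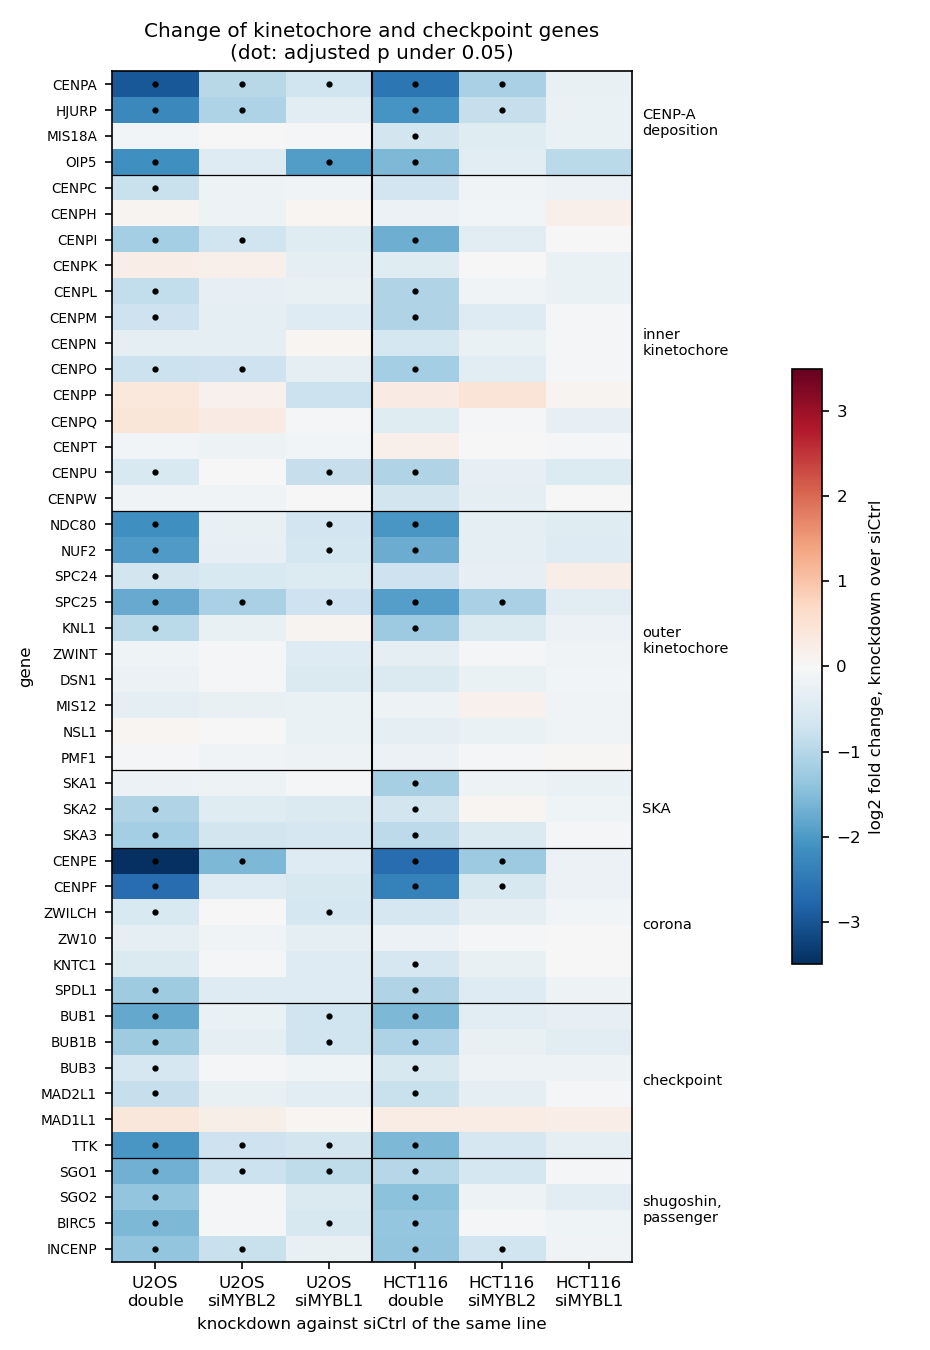
Log2 fold change of each of the 46 genes (rows, by role) in 6 comparisons with siCtrl of the same line (columns), as deposited by the authors; blue is lower and red higher in the knockdown, and a dot marks an adjusted p under 0.05. The double knockdown columns carry 29 dots in U2OS and 29 in HCT116, all on lower values, and CENPE in U2OS has the lowest value, -3.50.

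The 2 lines share no library, and 26 genes were lower in the double knockdown of both, which is 26 of the 29 in each. The same overlap over all genes was not computed, so how far it exceeds that of other lowered genes is not known. CENPC, SPC24 and ZWILCH were called in U2OS alone, and MIS18A, SKA1 and KNTC1 in HCT116 alone. The other 14 were called in neither line: CENPH, CENPK, CENPN, CENPP, CENPQ, CENPT, CENPW, ZWINT, DSN1, MIS12, NSL1, PMF1, ZW10 and MAD1L1. RNA from whole cultures was measured, so fewer cells in G2 and mitosis and less of each RNA per cell cannot be told apart. A list of 27 spindle, kinesin and cytokinesis genes, also expressed late in the cycle, was lower in 27 of 27 in both lines' double knockdown, with a median log2 fold change of -1.77 in U2OS and -1.65 in HCT116. Of 30 DNA replication genes, 3 were lower in the U2OS double knockdown (median -0.17) and 14 in the HCT116 double knockdown (median -0.54). The part of such a shift in cell cycle stage in the values below was not tested.

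The promoters of 37 of the 46 genes are in the RefSeq table of GRCh38.p14, as windows from 250 bases before to 50 bases after a gene's start. They bear on the comparison because MuvB recognises CHR, searched here as TTTGAA on both strands (TTCAAA on the strand shown). Also searched, on both strands, were CCAAT, the MYB core AACNG, and the E2F-like letters TTCCCGCC or TTGGCGC. Each motif was counted on its own, whether or not a match overlapped one of another motif. Below are 3 genes with CHR letters next to their start, and CENPE, the lowest of all members in both double knockdowns. The CENPE window holds no TTTGAA on either strand, and other forms of CHR were not searched. CHR and CCAAT letters are in capitals.
CENPA (chr2:26785806-26786105, plus strand): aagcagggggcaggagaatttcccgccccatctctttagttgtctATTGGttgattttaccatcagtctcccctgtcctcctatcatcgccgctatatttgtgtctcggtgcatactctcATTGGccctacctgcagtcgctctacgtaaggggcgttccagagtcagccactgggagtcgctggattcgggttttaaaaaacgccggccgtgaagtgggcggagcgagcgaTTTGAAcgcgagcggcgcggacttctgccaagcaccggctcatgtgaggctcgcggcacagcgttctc
SPC25 (chr2:168890381-168890680, minus strand): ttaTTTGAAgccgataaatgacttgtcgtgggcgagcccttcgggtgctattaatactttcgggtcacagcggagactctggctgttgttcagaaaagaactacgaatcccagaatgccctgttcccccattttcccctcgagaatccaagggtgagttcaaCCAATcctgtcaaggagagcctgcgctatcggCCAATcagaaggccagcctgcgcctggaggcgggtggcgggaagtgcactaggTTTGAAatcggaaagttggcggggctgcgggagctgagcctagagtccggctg
NDC80 (chr18:2571307-2571606, plus strand): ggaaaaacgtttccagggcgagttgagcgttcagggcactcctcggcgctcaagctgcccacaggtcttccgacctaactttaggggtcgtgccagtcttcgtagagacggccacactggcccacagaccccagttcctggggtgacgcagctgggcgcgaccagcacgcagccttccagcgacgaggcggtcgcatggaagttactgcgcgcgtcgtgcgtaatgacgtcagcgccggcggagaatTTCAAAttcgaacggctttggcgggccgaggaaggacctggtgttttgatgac
CENPE (chr4:103198294-103198593, minus strand): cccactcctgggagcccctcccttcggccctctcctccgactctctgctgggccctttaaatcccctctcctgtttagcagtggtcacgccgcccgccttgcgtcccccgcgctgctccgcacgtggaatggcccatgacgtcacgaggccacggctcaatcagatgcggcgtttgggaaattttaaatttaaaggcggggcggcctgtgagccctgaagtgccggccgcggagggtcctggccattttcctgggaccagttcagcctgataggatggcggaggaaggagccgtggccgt

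The CHR letters began 18 bases before the start in CENPA, and 3 bases before it in both SPC25 and NDC80. SPC25 had a second copy 247 bases before the start. CHR letters stood in the windows of 12 of 20 genes that were lower in both lines' double knockdown (60.0%), 2 of 4 that were lower in 1 line, and 3 of 13 that were lower in neither (23.1%), against 18.2% of 27305 genes with a window. Counted within 50 bases of the start, a window chosen after the positions were seen, they stood in 11 of 20 (55.0%), 1 of 4 and 2 of 13 (15.4%) of these genes, and in 5.77% of all genes. CCAAT letters were present in 13 of the 20 genes lower in both lines and 9 of the 13 lower in neither, against 39.7% of all genes. E2F-like letters were present in 5 of the 20 and 5 of the 13, against 7.2% of all genes, and MYB core letters in 18 of the 20 and 12 of the 13, against 80.5%. In these counts, which carry no test, the share with CHR letters was higher among genes lower in both lines than among those lower in neither, and the shares with the other 3 motifs were not. A match shows letters only, not a bound site, and forms of CHR other than TTTGAA were not counted.

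**Figure D2:**
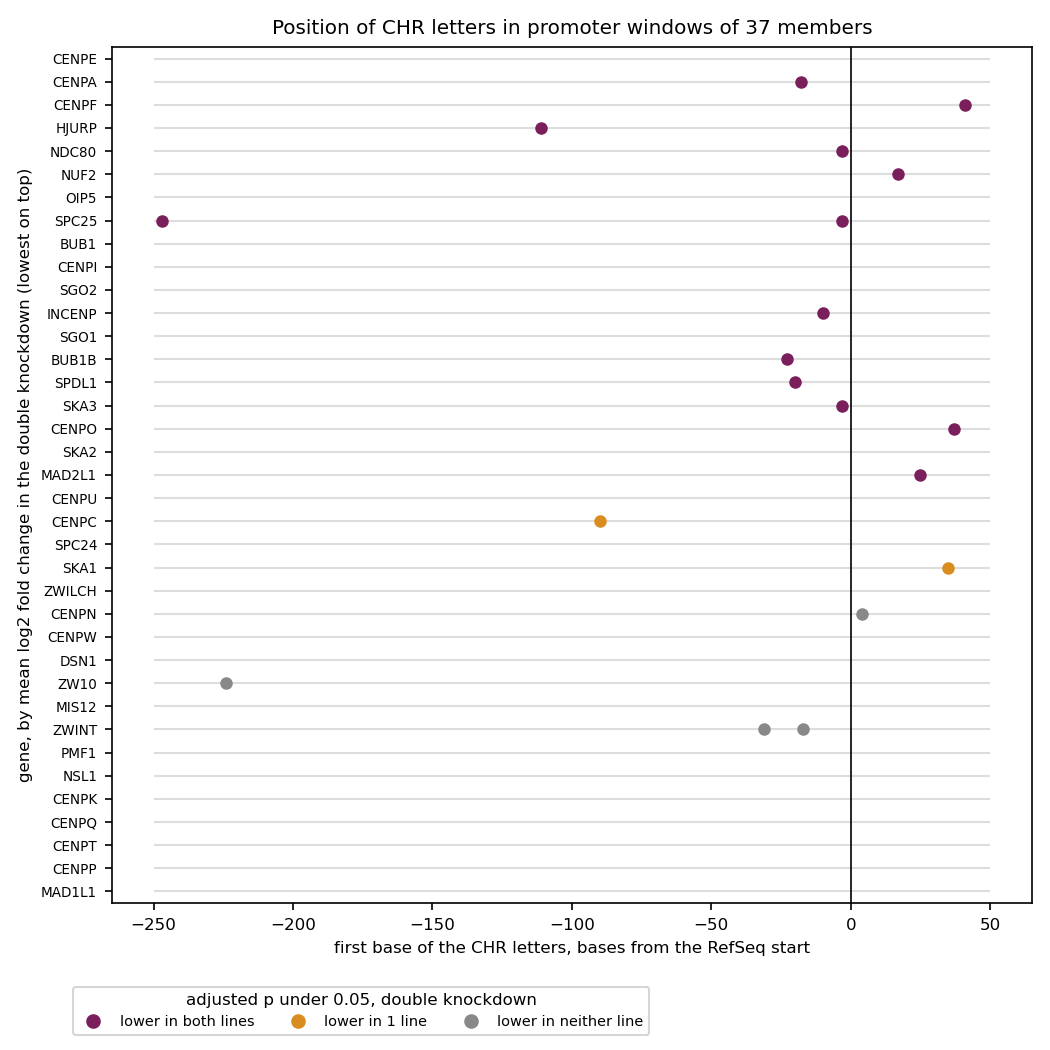
Position of CHR letters (first base, in bases from the RefSeq start at 0) in the promoter windows of 37 members, ordered from the lowest mean log2 fold change of the 2 double knockdowns at the top; colours mark whether the gene was lower in both lines, 1 line or neither. Of the 20 genes lower in both lines, 11 have a match within 50 bases of the start. CENPE, OIP5 and BUB1 have no TTTGAA in the window, and other forms of CHR were not searched.

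Of the 4 members that place CENP-A at the centromere, 3 fell in both double knockdowns. CENPA, the histone H3 variant that marks active centromeres (chr2:26764289-26801067, hg38, plus strand), stood at 169 normalized counts in the U2OS double knockdown, against 1332 in siCtrl, and at 85.2 in the HCT116 double knockdown, against 496 in siCtrl. The authors' deposited tables give log2 fold changes of -2.98 (SE 0.25, adjusted p 6.1e-29) in U2OS and -2.54 (SE 0.29, adjusted p 8.4e-16) in HCT116. HJURP, the chaperone that loads CENP-A, stood at 347 in the U2OS double knockdown, against 1642 in siCtrl, and at 353 in the HCT116 double knockdown, against 1486 in siCtrl. Its log2 fold changes in the authors' deposited tables were -2.24 (SE 0.19) and -2.07 (SE 0.23). Both were also lower after siMYBL2 alone, CENPA by the authors' deposited log2 fold changes of -0.97 in U2OS and -1.14 in HCT116, and HJURP by -1.07 in U2OS and -0.81 in HCT116. OIP5, a subunit of the Mis18 complex that licenses CENP-A loading, stood at 157 in the U2OS double knockdown, against 690 in siCtrl, and at 118 in the HCT116 double knockdown, against 351 in siCtrl. MIS18A, another subunit, was called in HCT116 alone, with a deposited log2 fold change of -0.64 (SE 0.21, adjusted p 0.044) in the authors' table there and -0.10 (SE 0.18) in U2OS. With the median of genes at a base mean of at least 100 subtracted, MIS18A no longer passed in HCT116, at -0.61. CENPA overlaps an exon of SLC35F6 on the same strand and OIP5 one of OIP5-AS1 on the other, and the sources used here do not say whether counting used strand.

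The inner kinetochore, a network of CENP proteins that sits on CENP-A chromatin throughout the cycle, was split. Of its 13 genes among the members, 6 were lower in the U2OS double knockdown and 5 in the HCT116 double knockdown. Their median log2 fold changes were -0.31 and -0.65. ITGB3BP, CENPS and CENPX, further genes of this network, are counted with the partners below, and none of them passed in either double knockdown. At an adjusted p under 0.01 the U2OS count was 3, CENPI, CENPM and CENPO. CENPI, which forms a subcomplex with CENP-H, CENP-K and CENP-M, was the lowest in both lines, at 404 normalized counts in the U2OS double knockdown, against 914 in siCtrl, and at 136 in the HCT116 double knockdown, against 442 in siCtrl. In the authors' deposited tables its log2 fold changes were -1.18 (SE 0.22, adjusted p 5.4e-06) and -1.70 (SE 0.28, adjusted p 1.7e-07). CENPL, CENPM, CENPO and CENPU were the others called in both lines, with deposited log2 fold changes between -0.85 and -0.53 in the authors' U2OS table and between -1.19 and -1.05 in the HCT116 one. CENPC, which links CENP-A nucleosomes to the outer kinetochore, is given in the authors' deposited table of the U2OS double knockdown at -0.78 (SE 0.24, adjusted p 0.015) and in that of HCT116 at -0.67 (SE 0.28, adjusted p 0.14). CENPT and CENPW, histone-fold proteins that recruit the outer layer, passed in neither line. CENPW stood at 91.1% of siCtrl in the U2OS double knockdown and at 63.7% in the HCT116 one. The authors' deposited HCT116 table gives CENPW -0.65 (SE 0.22, adjusted p 0.052), close to the threshold. CENPT stood at 722 in the U2OS double knockdown, against 765 in siCtrl, and at 830 in the HCT116 double knockdown, against 730 in siCtrl. CENPH stood at 883 in the U2OS double knockdown, against 824 in siCtrl, and at 298 in the HCT116 double knockdown, against 346 in siCtrl. CENPK, CENPP and CENPQ also had positive values in the authors' deposited table of the U2OS double knockdown, between 0.24 and 0.42, none past the threshold. Exons of CENPL, CENPN, CENPO, CENPP, CENPT and CENPU overlap a protein-coding gene on the other strand, so their counts are uncertain if strand was not used.

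In the outer kinetochore, 3 of the 4 genes of the NDC80 complex fell in both double knockdowns, and those of the MIS12 complex did not pass the test in either line. The NDC80 complex is the rod that grips microtubules, and the MIS12 complex anchors it to the inner layer. NDC80 stood at 754 normalized counts in the U2OS double knockdown, against 3326 in siCtrl, and at 232 in the HCT116 double knockdown, against 952 in siCtrl. The authors' deposited tables give it log2 fold changes of -2.14 (SE 0.17, adjusted p 2.6e-34) and -2.04 (SE 0.26, adjusted p 5.4e-13). NUF2, which pairs with NDC80 at the microtubule-binding end, stood at 415 in the U2OS double knockdown, against 1654 in siCtrl, and at 266 in the HCT116 double knockdown, against 894 in siCtrl. SPC25, at the other end of the rod, stood at 376 in the U2OS double knockdown, against 1280 in siCtrl, and at 224 in the HCT116 double knockdown, against 846 in siCtrl. Its partner SPC24 had smaller values, with deposited log2 fold changes of -0.63 (SE 0.21, adjusted p 0.026) in the authors' U2OS table and -0.74 (SE 0.27, adjusted p 0.080) in the HCT116 one. KNL1, the scaffold for checkpoint proteins, stood at 795 in the U2OS double knockdown, against 1522 in siCtrl, and at 547 in the HCT116 double knockdown, against 1322 in siCtrl. MIS12, DSN1, NSL1 and PMF1, the MIS12 complex, and ZWINT, which binds KNL1, stood at 80.2% to 105% of siCtrl in the U2OS double knockdown and at 71.1% to 89.2% in the HCT116 one. PMF1 shares exons with a read-through gene, PMF1-BGLAP, so its counts may be split.

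The SKA complex, which couples kinetochores to shortening microtubules, had 2 of 3 genes lower in the U2OS double knockdown and 3 of 3 in the HCT116 double knockdown. SKA3 stood at 369 normalized counts in the U2OS double knockdown, against 836 in siCtrl, and at 534 in the HCT116 double knockdown, against 1010 in siCtrl. SKA2 stood at 1778 in the U2OS double knockdown, against 3692 in siCtrl, and at 1053 in the HCT116 double knockdown, against 1649 in siCtrl. SKA1 was called in HCT116 alone: it stood at 523 in the U2OS double knockdown, against 602 in siCtrl, and at 287 in the HCT116 double knockdown, against 640 in siCtrl. Its deposited log2 fold changes in the authors' tables were -0.20 (SE 0.25) in U2OS and -1.16 (SE 0.23, adjusted p 4.9e-05) in HCT116. The difference, U2OS minus HCT116, was 0.95 (SE 0.34) and did not pass (adjusted p 0.18).

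The fibrous corona held CENPE, the lowest member in both double knockdowns, and genes that did not pass. CENPE, a kinesin that carries chromosomes toward the spindle equator (chr4:103105349-103198445, hg38, minus strand), stood at 208 normalized counts in the U2OS double knockdown, against 2349 in siCtrl, and at 162 in the HCT116 double knockdown, against 1029 in siCtrl. In the authors' deposited tables this is -3.50 (SE 0.22, adjusted p 4.7e-52) and -2.67 (SE 0.24, adjusted p 7.8e-25), leaving 8.84% and 15.7% of the siCtrl level. CENPF, a large microtubule-binding protein of the corona (chr1:214603195-214664571, hg38, plus strand), stood at 1088 in the U2OS double knockdown, against 6866 in siCtrl, and at 918 in the HCT116 double knockdown, against 4758 in siCtrl. The authors' deposited tables give CENPF -2.66 (SE 0.17, adjusted p 4.2e-50) and -2.37 (SE 0.19, adjusted p 1.0e-32). SPDL1, or Spindly, which recruits dynein, stood at 528 in the U2OS double knockdown, against 1252 in siCtrl, and at 400 in the HCT116 double knockdown, against 824 in siCtrl. The complex of KNTC1, ZW10 and ZWILCH, on which Spindly docks, had values between -0.53 and -0.30 in the authors' deposited table of the U2OS double knockdown and between -0.60 and -0.21 in that of HCT116. Of those 3, ZWILCH passed in U2OS and KNTC1 in HCT116.

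Of the 6 spindle checkpoint genes among the members, 5 were lower in each line's double knockdown. BUB1, the kinase that places shugoshin and checkpoint proteins, stood at 915 normalized counts in the U2OS double knockdown, against 3184 in siCtrl, and at 844 in the HCT116 double knockdown, against 2508 in siCtrl. TTK, or MPS1, the kinase that starts the checkpoint signal, stood at 217 in the U2OS double knockdown, against 886 in siCtrl, and at 512 in the HCT116 double knockdown, against 1521 in siCtrl. The SE of TTK was 0.23 in U2OS and 0.50 in HCT116, the largest of any member in the authors' deposited tables, and its adjusted p in HCT116 was 0.032 at a log2 fold change of -1.57. BUB1B, or BUBR1, part of the inhibitor that holds the anaphase-promoting complex, stood at 948 in the U2OS double knockdown, against 2229 in siCtrl, and at 1065 in the HCT116 double knockdown, against 2246 in siCtrl. MAD2L1 and BUB3, further parts of that inhibitor, had smaller log2 fold changes in the authors' deposited tables. MAD2L1 was at -0.81 (SE 0.20) in U2OS and -0.79 (SE 0.20) in HCT116, and BUB3 at -0.59 (SE 0.17) in U2OS and -0.55 (SE 0.15) in HCT116. MAD1L1, which anchors MAD2L1 at the kinetochore, was the exception: it had positive values in all 6 of the authors' deposited tables, none past the threshold, with 0.39 (SE 0.19) in the U2OS double knockdown and 0.27 (SE 0.19) in the HCT116 one.

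All 4 genes of the shugoshin and chromosomal passenger group were lower in both double knockdowns. Shugoshins guard sister cohesion at the centromere, and the passenger complex carries the Aurora B kinase that corrects wrong attachments. BIRC5, or survivin, stood at 1528 normalized counts in the U2OS double knockdown, against 4547 in siCtrl, and at 1718 in the HCT116 double knockdown, against 4414 in siCtrl. INCENP, the scaffold of the complex, stood at 511 in the U2OS double knockdown, against 1334 in siCtrl, and at 615 in the HCT116 double knockdown, against 1616 in siCtrl. SGO1 stood at 273 in the U2OS double knockdown, against 872 in siCtrl, and at 196 in the HCT116 double knockdown, against 390 in siCtrl. SGO2 stood at 508 in the U2OS double knockdown, against 1332 in siCtrl, and at 407 in the HCT116 double knockdown, against 1098 in siCtrl. The authors' deposited log2 fold changes of the 4 were between -1.68 and -1.39 in U2OS and between -1.43 and -0.996 in HCT116.

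**Figure D3:**
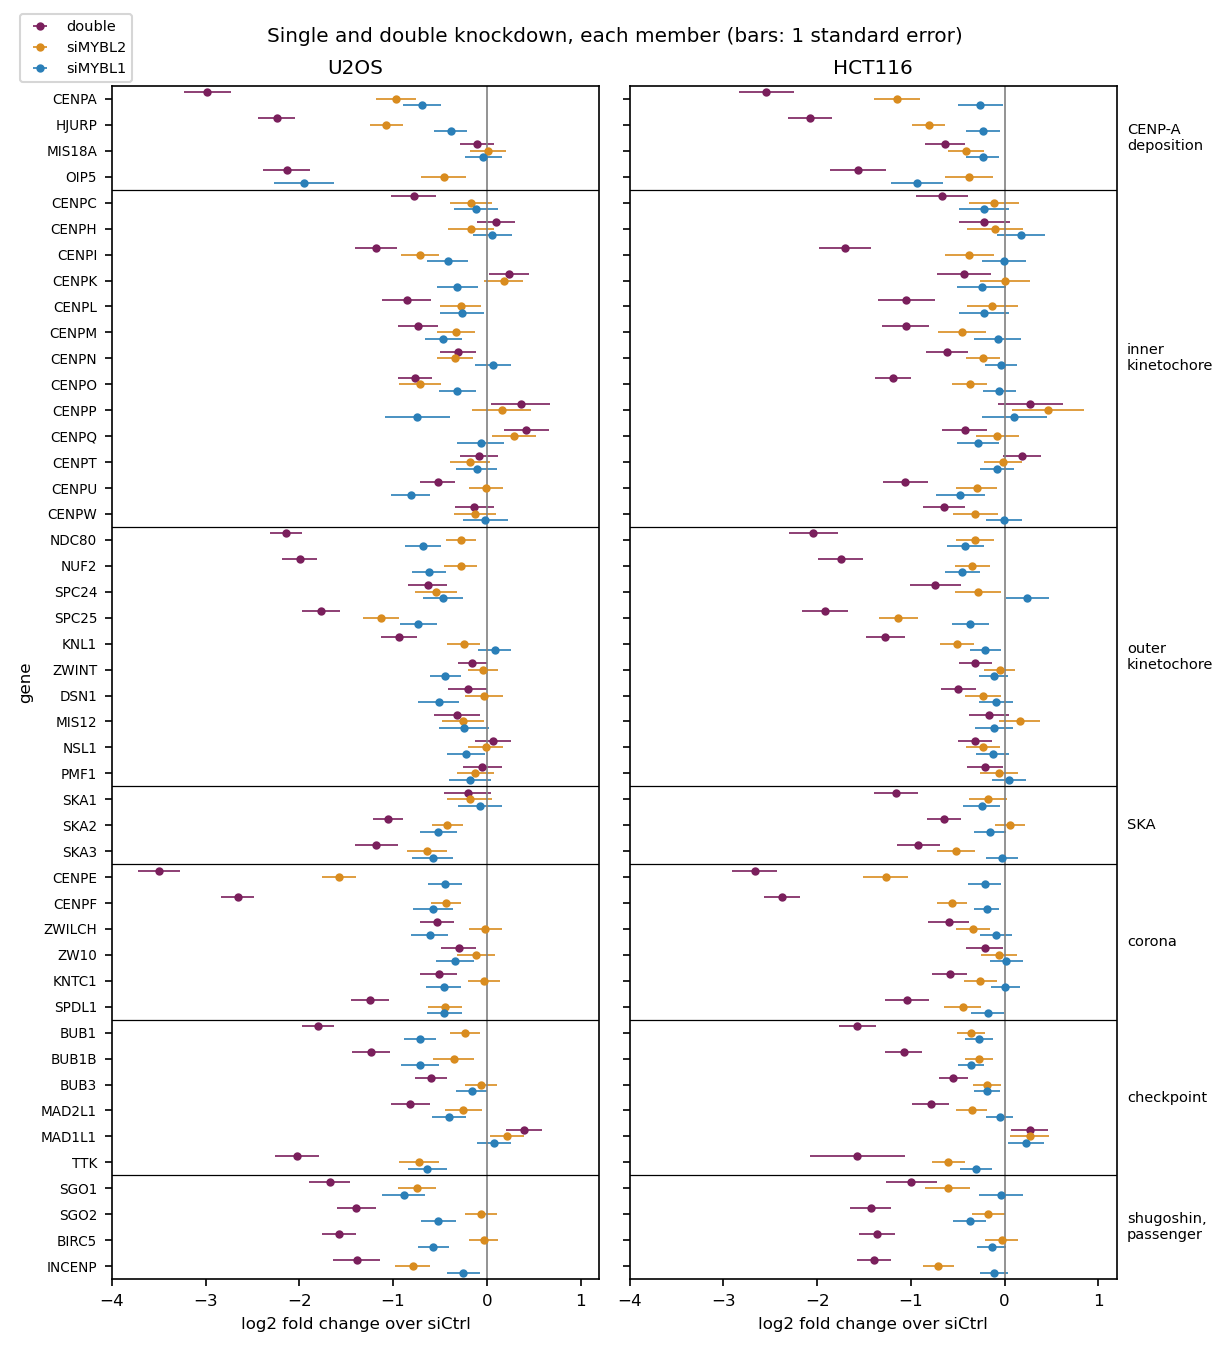
Log2 fold change over siCtrl (horizontal axis) with bars of 1 SE for each member in U2OS (left) and HCT116 (right), from the authors' deposited tables, for the double knockdown (purple), siMYBL2 (orange) and siMYBL1 (blue). The double knockdown lies left of both single ones for CENPF, NDC80, NUF2 and BIRC5 in both lines, while OIP5 in U2OS has siMYBL1 at -1.95 close to the double knockdown at -2.14.

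Among the single knockdowns, siMYBL2 lowered CENPA, HJURP, SPC25, CENPE and INCENP in both lines. These are 5 of the 9 members called in U2OS and 5 of the 6 called in HCT116, and the overlap over all genes was not computed. CENPE was the lowest of them: it stood at 826 normalized counts after siMYBL2 in U2OS, against 2462 in siCtrl, and at 386 after siMYBL2 in HCT116, against 930 in siCtrl. The authors' deposited tables give CENPE -1.58 (SE 0.18, adjusted p 7.9e-16) in U2OS and -1.27 (SE 0.24, adjusted p 0.00011) in HCT116. SPC25 stood at 609 after siMYBL2 in U2OS, against 1332 in siCtrl, and at 363 after siMYBL2 in HCT116, against 798 in siCtrl. CENPI, CENPO, TTK and SGO1 were called in U2OS alone and CENPF in HCT116 alone, where its adjusted p was 0.034 at a deposited log2 fold change of -0.56 in the authors' table. With the median of genes at a base mean of at least 100 subtracted, CENPF no longer passed in HCT116, at -0.53. BIRC5 stood at 97.7% of siCtrl after siMYBL2 in U2OS and at 97.8% in HCT116, and NDC80 at 82.8% and 80.4%, none past the threshold.

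After siMYBL1, 12 genes were lower in U2OS: CENPA, OIP5, CENPU, NDC80, NUF2, SPC25, ZWILCH, BUB1, BUB1B, TTK, SGO1 and BIRC5. OIP5 was the lowest, at 179 normalized counts after siMYBL1 in U2OS, against 692 in siCtrl, a deposited log2 fold change of -1.95 (SE 0.32, adjusted p 6.4e-07) in the authors' table. The other 11 had values between -0.89 and -0.57 in the same deposited table of the authors. SGO1 stood at 470 after siMYBL1 in U2OS, against 870 in siCtrl, and BUB1 at 1919, against 3139 in siCtrl. In HCT116 OIP5 was again the lowest member after siMYBL1, at 171, against 326 in siCtrl, where the authors' deposited table gives it an adjusted p of 0.17. MYBL1 itself was left at 50.7% of siCtrl after siMYBL1 in U2OS and at 31.4% in HCT116.

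The difference between the 2 single knockdowns was tested gene by gene, as siMYBL2 minus siMYBL1, with a normal test and Benjamini-Hochberg adjustment over all genes. The 2 share their siCtrl libraries, so the summed error used is too large. In U2OS, 1 member was lower after siMYBL2 than after siMYBL1, where 2.22% of all genes were lower, and 1 was higher, where 0.701% were. CENPE was the lower one, at -1.58 after siMYBL2 and -0.45 after siMYBL1 in the authors' deposited tables, a difference of -1.13 (SE 0.26, adjusted p 0.0011). OIP5 was the higher one, at -0.46 after siMYBL2 and -1.95 after siMYBL1 in the authors' deposited tables, a difference of 1.49 (SE 0.40, adjusted p 0.012). In HCT116, 0 members passed, where 0.388% of all genes were lower and 0.105% higher. An unadjusted p under 0.05 in this normal test was reached by 5 members and by 701 of all 13387 genes in HCT116. CENPE had a difference of -1.06 (SE 0.30, adjusted p 0.075) there. With the shared part of the error removed, 5 members passed as lower in HCT116, and 3 as lower and 5 as higher in U2OS. The shares of all genes under that smaller error were not computed.

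**Figure D4:**
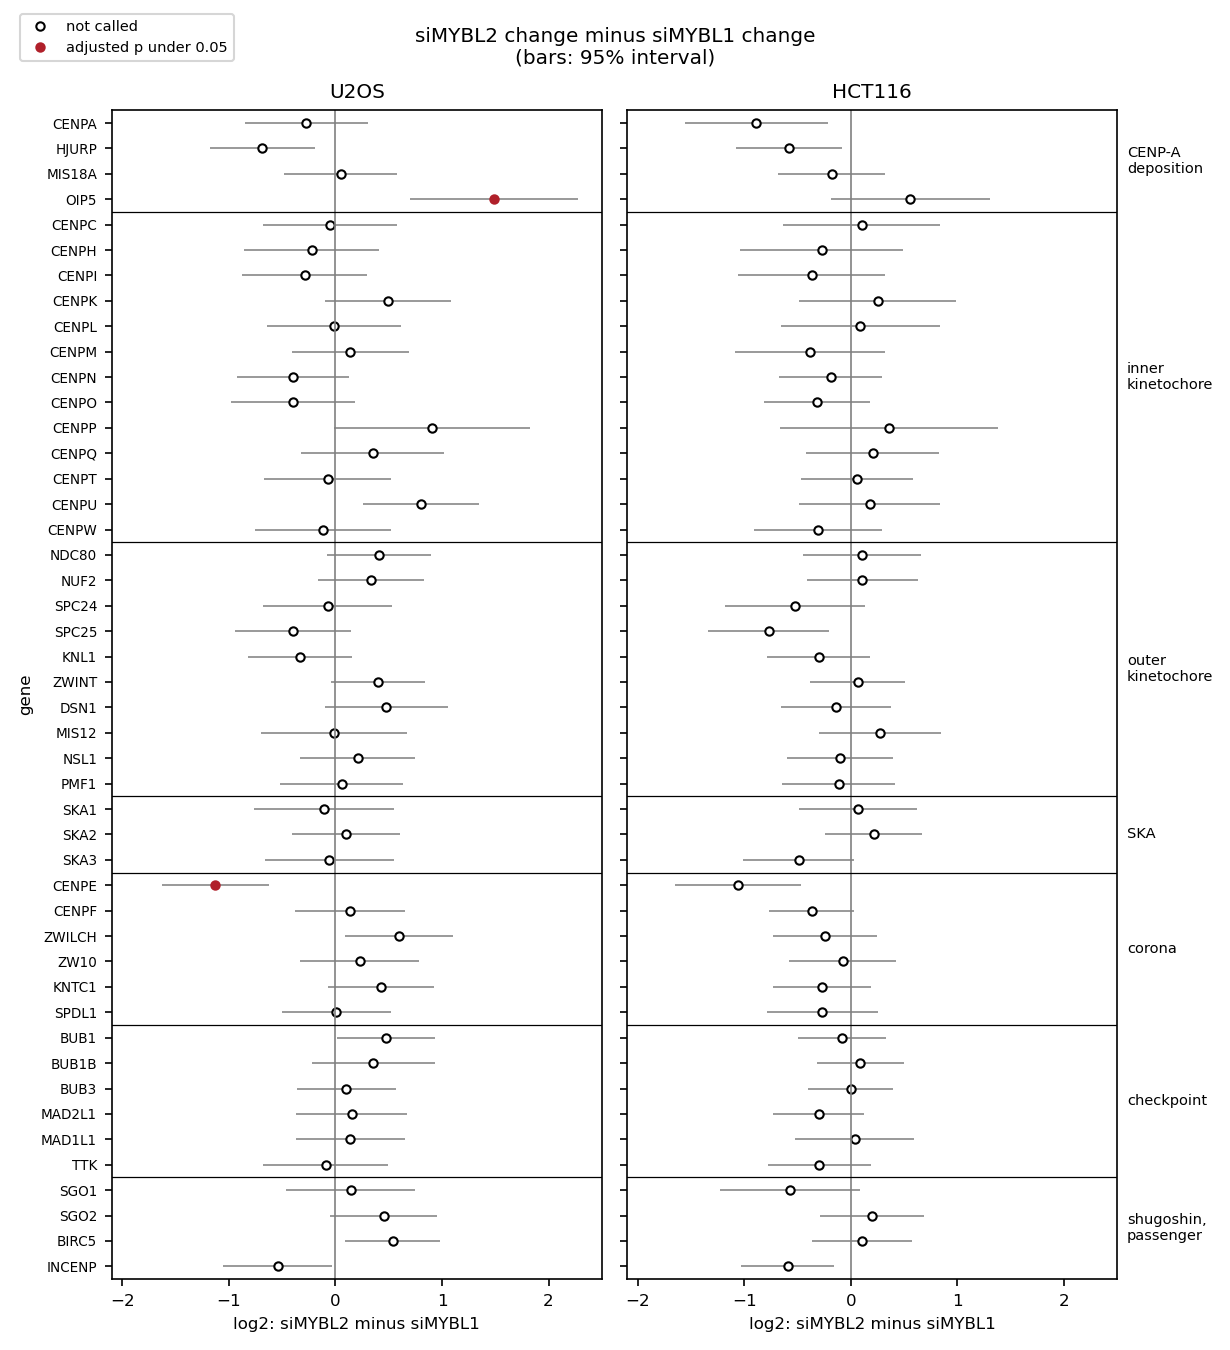
Difference of log2 fold changes, siMYBL2 minus siMYBL1 (horizontal axis), with 95% intervals for each member in U2OS (left) and HCT116 (right); filled red points have an adjusted p under 0.05. In U2OS the filled points are OIP5 at 1.49 and CENPE at -1.13, and HCT116 has none.

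An siRNA can also lower transcripts whose 3' untranslated region pairs with its seed, so the letters of those regions were read in GENCODE release 29. Ranked were 7-base words present in at least 200 genes, counting those whose base mean reached 100. The rank used the mean Wald statistic of genes with a word minus that of the rest, times the square root of the number with it. After siMYBL1, GAACTTA ranked 1 of 13586 words in U2OS and 1 of 13415 in HCT116. Genes with it had means of -0.58 and -0.52, against 0.21 and 0.12 for the rest. After siMYBL2, CCTTACA ranked 1 of 13624 words in U2OS and 1 of 13447 in HCT116. Genes with it had means of -0.59 and -0.56, against -0.07 and -0.13 for the rest. These words were picked from the data and carry no test, and the sources used here do not give the siRNA sequences. Of the 46 genes, OIP5, ZWILCH, BUB3 and MAD2L1 hold GAACTTA, and CENPE, ZW10 and MAD2L1 hold CCTTACA. The sites of OIP5 and CENPE, the members that differed between the single knockdowns in U2OS, are shown with that of ZWILCH, with the word in capitals.
OIP5 (chromosome 15, minus strand): atttgccttaaGAACTTActttagattct
ZWILCH (chromosome 15, plus strand): gccatgaaataGAACTTAgtaaattaaat
CENPE (chromosome 4, minus strand): tgtttttaataCCTTACAcattcaataaa

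Members with and without a word were set side by side, without a test. After siMYBL1 in U2OS, 2 of 4 genes with GAACTTA were lower (OIP5 and ZWILCH), as were 10 of 42 without it, and the medians were -0.51 and -0.45. Of the 4 with GAACTTA, OIP5 stood at 25.85% of siCtrl there, ZWILCH at 65.5%, MAD2L1 at 75.7%, and BUB3, with 2 copies, at 89.4%. After siMYBL1 in HCT116, 0 of 4 with GAACTTA and 0 of 42 without it were lower, with medians of -0.14 and -0.146. After siMYBL2, 1 of 3 genes with CCTTACA was lower in each line (CENPE), as were 8 of 43 without it in U2OS and 5 of 43 in HCT116. The medians with and without CCTTACA were -0.25 and -0.247 in U2OS, and -0.352 and -0.282 in HCT116. In the double knockdown, 5 of 6 genes with either word were lower in U2OS, as were 24 of 40 without. In HCT116, 4 of 6 with either word were lower in the double knockdown, as were 25 of 40 without. The medians with and without a word were -0.70 and -0.77 in U2OS, and -0.69 and -1.02 in HCT116, so genes without a word had the lower median. The part of seed pairing in the values of OIP5, ZWILCH and CENPE was not tested.

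The double knockdown was then set against each single one, by the same test of the difference. All comparisons within a line share the siCtrl libraries, and the summed error is again too large. Lower in the double knockdown than after siMYBL1 were 12 of 46 members in U2OS, where 1.44% of all genes were, and 14 of 46 in HCT116, where 1.12% were. Lower in the double knockdown than after siMYBL2 were 11 of 46 in U2OS (0.795% of all genes) and 9 of 46 in HCT116 (0.544%). No member was higher in any of these 4 comparisons. Of all genes, 0.0949% were higher than after siMYBL1 in U2OS and 0.163% in HCT116. Against siMYBL2, 0.258% were higher in U2OS and 0.101% in HCT116. With the shared part of the error removed, the counts against siMYBL2 were 18 in U2OS and 19 in HCT116, and that against siMYBL1 was 25 in HCT116. The shares of all genes under that smaller error, which would also change, were not computed. CENPF stood at 1088 normalized counts in the U2OS double knockdown, against 5238 after siMYBL2 and 4970 after siMYBL1. In HCT116 it stood at 918 in the double knockdown, against 2970 after siMYBL2 and 3663 after siMYBL1. BIRC5 stood at 1528 in the U2OS double knockdown, against 4504 after siMYBL2 and 2917 after siMYBL1, and both differences passed (adjusted p 6.8e-08 and 0.0049). BUB1 differed by -1.56 (SE 0.23) from siMYBL2 and by -1.09 (SE 0.24) from siMYBL1 in U2OS, and by -1.22 (SE 0.25) and -1.30 (SE 0.25) in HCT116. OIP5 in U2OS was lower in the double knockdown than after siMYBL2, by -1.67 (SE 0.34, adjusted p 0.00029), while its difference from siMYBL1 was -0.18 (SE 0.41, 95% interval -0.98 to 0.61) and did not pass.

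The last question within a line was whether the double knockdown went beyond the sum of the single ones on the log2 scale. It did for 3 of 46 members in U2OS, where 0.211% of all genes were lower than the sum, and for 1 of 46 in HCT116, where 0.132% were. CENPF passed in both lines, at -1.65 (SE 0.32, 95% interval -2.27 to -1.03, adjusted p 0.00024) in U2OS and -1.62 (SE 0.28, 95% interval -2.17 to -1.07, adjusted p 3.8e-05) in HCT116. CENPE passed in U2OS, at -1.48 (SE 0.34, adjusted p 0.0092), and was at -1.19 (SE 0.39, adjusted p 0.70) in HCT116. NDC80 passed in U2OS, at -1.19 (SE 0.30, adjusted p 0.040), and was at -1.31 (SE 0.38, adjusted p 0.26) in HCT116. An unadjusted p under 0.05 in this normal test was reached by 10 members in U2OS and 13 in HCT116, all on the lower side. Of all genes, 200 of 14701 in U2OS and 145 of 12873 in HCT116 reached it, in either direction. The median departure of the 46 was -0.03 in U2OS and -0.38 in HCT116, against -0.01 and -0.02 for all genes. With the shared part of the error removed, 6 members passed in U2OS and 4 in HCT116, and the shares of all genes were not recomputed.

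**Figure D5:**
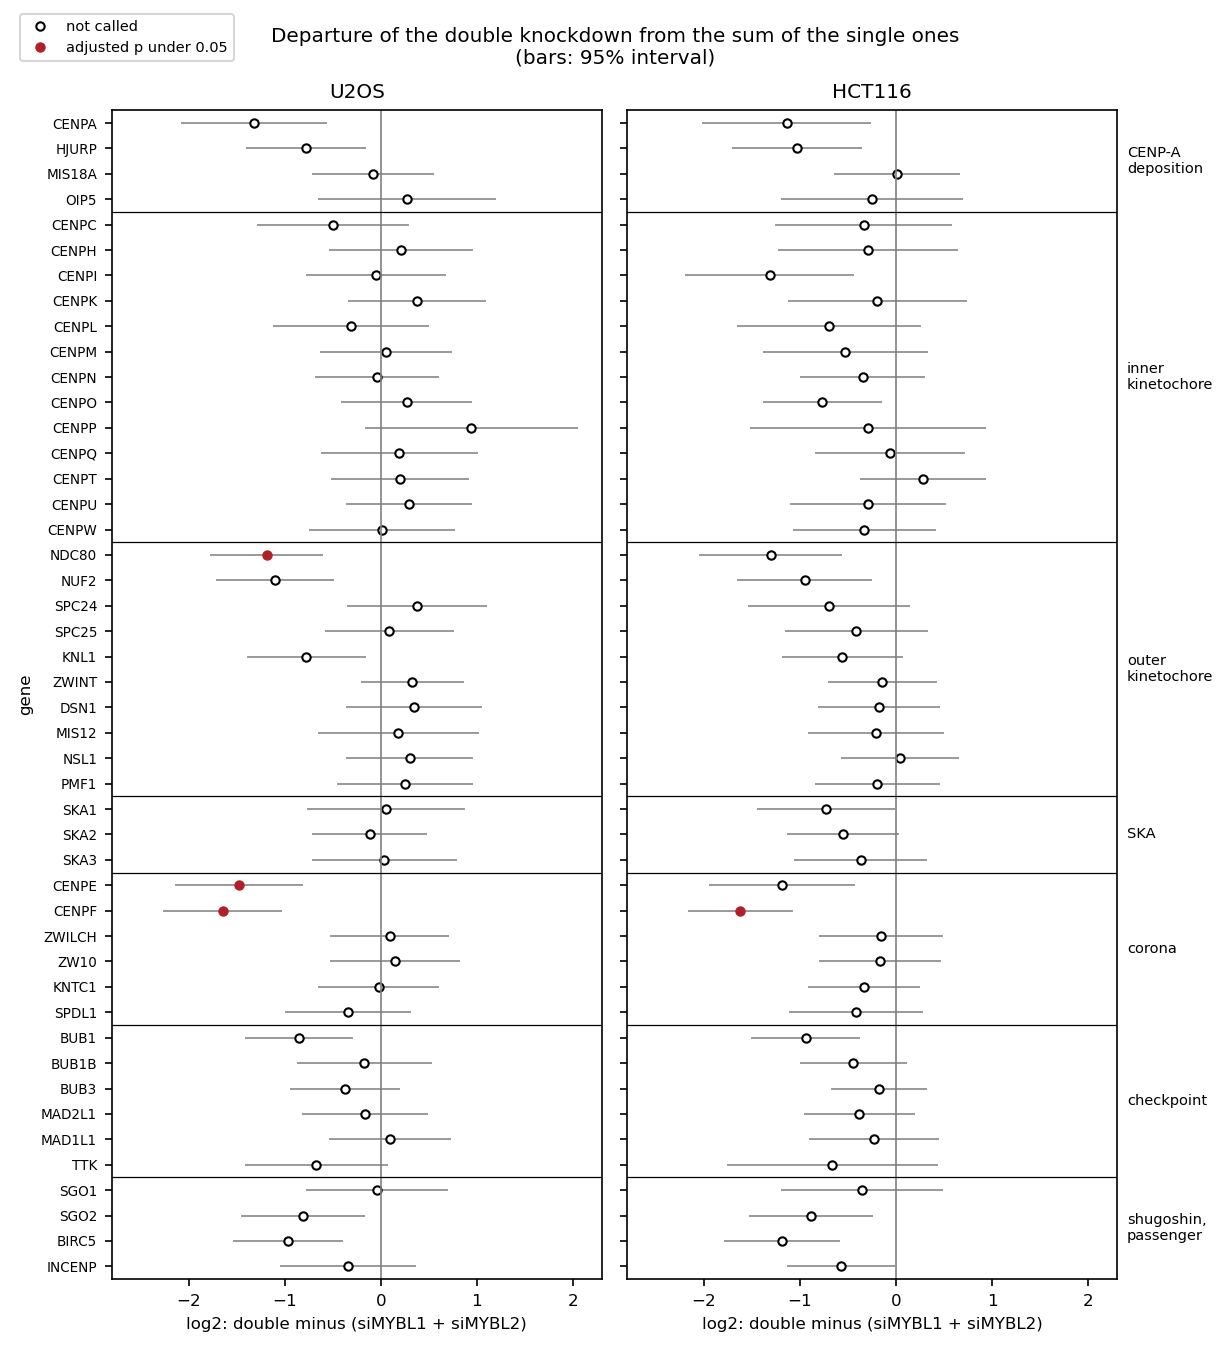
How far the double knockdown lay from the 2 single knockdowns added together (log2, horizontal axis) with 95% intervals for each member in U2OS (left) and HCT116 (right); 0 means that the log2 changes add up, and filled red points have an adjusted p under 0.05. The filled points are CENPF, CENPE and NDC80 in U2OS and CENPF in HCT116, all below 0.

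Between the lines, 0 of 46 members differed past the threshold under any siRNA by the test of the difference, U2OS minus HCT116. Genes called in either direction were 1.27% of all in the double knockdown, 0.215% after siMYBL2 and 0.0594% after siMYBL1. Members with an unadjusted p under 0.05 in this normal test numbered 3 in the double knockdown, 1 after siMYBL2 and 5 after siMYBL1. Of all genes, 1176 of 12388, 554 of 12566 and 645 of 13472 reached it in the same comparisons. No other tool could be run. After siMYBL1, where 12 genes were called in U2OS and 0 in HCT116, the largest of these differences were those of OIP5, at -1.02 (SE 0.43, 95% interval -1.85 to -0.18, adjusted p 0.73), and SGO1, at -0.85 (SE 0.33, 95% interval -1.49 to -0.21, adjusted p 0.59). In the double knockdown CENPE differed by -0.83 (SE 0.33, adjusted p 0.27) and CENPQ by 0.85 (SE 0.34, adjusted p 0.28). Over the 46 genes, the log2 fold changes of the 2 lines had a Pearson r of 0.92 (Spearman rho 0.90) in the double knockdown, 0.84 (0.70) after siMYBL2 and 0.60 (0.36) after siMYBL1. These describe genes, which share their libraries, and carry no p.

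Partners of the kinetochore outside the 46 genes were counted for comparison. Of 26 such genes, 14 were lower and 1 higher in the U2OS double knockdown, and 12 were lower in the HCT116 double knockdown, with medians of -0.75 and -0.44. PLK1, a mitotic kinase that docks at kinetochores, had a deposited log2 fold change of -4.07 (SE 0.22) in the authors' U2OS table and -2.19 (SE 0.20) in the HCT116 one. CDC20, the checkpoint's target, had -2.84 (SE 0.18) in the authors' deposited table of the U2OS double knockdown and -1.57 (SE 0.21) in that of HCT116. AURKB, the Aurora B kinase, had -2.50 (SE 0.22) and -1.95 (SE 0.20) in the authors' deposited tables, and CDCA8, or borealin, -2.50 (SE 0.20) and -1.69 (SE 0.20). The passenger complex was thus lower in all 4 of its subunits, 2 of them among the members, in both lines. RCC2, a centromere-associated protein, was lower in all 6 of the authors' deposited tables. Its 3' untranslated region holds both GAACTTA and CCTTACA, and the part of seed pairing in its values was not tested. Among the other partners, MAD2L1BP, CLASP2 and PPP2R5C hold GAACTTA, and PPP2R5E holds CCTTACA. After siMYBL1, MAD2L1BP was lower in U2OS alone, and CLASP2 and PPP2R5C passed in neither line. After siMYBL2, PPP2R5E was lower in U2OS alone. The single partner that was higher in the U2OS double knockdown was BOD1, a regulator of phosphatase at the kinetochore, named after its values were seen, at 0.69 in the authors' deposited table. BOD1 was also higher after siMYBL1 alone in U2OS, at 1.09, and was at 0.08 after siMYBL2 alone, which did not pass. It passed in no HCT116 comparison.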

How the data were processed

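The study sequenced total RNA of 16 libraries, 8 groups of 2. The submitters' processing notes name cutadapt 4.4, Salmon 1.10.1, DESeq2 1.40 and hg38, and the sources used here do not give the annotation. Each of 6 tables compares 1 knockdown with siCtrl of its line. Per the file headers, the base mean the authors deposited is a signal, the mean normalized count over 4 libraries. The deposited fold change and its standard error are on the log2 scale, and the authors' Wald value is a score. Recomputed here, the deposited p-value and adjusted p-value equalled a normal test of that score and a Benjamini-Hochberg adjustment over the genes listed. A deposited mark column matched an adjusted p under 0.05 with an absolute log2 fold change over 0.5. No column holds values per library, so the depth of a library is unknown, and intervals cover only what the standard errors cover. Summed base means ran from 17441617 to 19826741, genes listed from 12885 to 17323, and median standard errors at a base mean of at least 100 from 0.187 to 0.224. The p-values rest on the authors' standard errors, which come from 2 libraries a group.

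Members and lists were chosen with earlier results of these data known. Calls against siCtrl are the authors' own. Differences of log2 fold changes were divided by an error that adds the squared standard errors, for a 2-sided normal p and Benjamini-Hochberg adjustment over all genes in the tables involved (Python 3.11.15, pandas 2.3.3, NumPy 2.4.6, SciPy 1.17.1), and the code was tested on simulated data. Group levels were solved from the base mean and fold change, taking groups of 2 as equal. Values are given in full for the lowest and highest called members of a role group. For other lists they are given for at most 6 called genes, which are not all those with the smallest adjusted p. One epithelial marker of the list as first written is not reported here. Coordinates are those of the deposited tables (hg38) and of RefSeq (GRCh38.p14). The 3' untranslated region of a gene is that of its principal transcript, the longest where several tie. Exons of 18 members overlap another gene, a protein-coding one in 14. Alternatives were a threshold of 0.01, a base mean of at least 100, adjustment over genes in all tables, medians subtracted, the shared control error removed, members with seed-like words left out, and the fold limit.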

Additional observations from a re-analysis of the deposited data

Results flagged for a closer look

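The double knockdown went beyond the 2 single ones added together, by a test of that difference, for CENPF in U2OS (-1.65, SE 0.32, adjusted p 0.00024) and in HCT116 (-1.62, SE 0.28, adjusted p 3.8e-05), for CENPE in U2OS (-1.48, SE 0.34, adjusted p 0.0092) and for NDC80 in U2OS (-1.19, SE 0.30, adjusted p 0.040). All 4 lay below the sum. CENPE and NDC80 had values on the same side in HCT116, -1.19 and -1.31, past no threshold after adjustment. The 3 comparisons behind each value share their siCtrl libraries.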

How the results depend on the processing

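At an adjusted p under 0.01, 5 members were lower after siMYBL1 in U2OS in place of 12, and 0 in place of 1 were higher after siMYBL2 than after siMYBL1 in U2OS. With the shared control part of the error removed, which makes every error smaller, the counts lower in the double knockdown were 25 against siMYBL1 and 19 against siMYBL2 in HCT116, and 18 against siMYBL2 in U2OS, where 1 member was higher than after siMYBL1. Then 5 were lower after siMYBL2 than after siMYBL1 in HCT116, 3 were lower and 5 higher in U2OS, and 4 departed from the sum in HCT116 and 6 in U2OS. Shares of all genes under that smaller error were not computed, so these counts have no background beside them. The other counts over all 46 members stayed within 1.5 times their value under each alternative run. Among the role groups in the double knockdowns, the inner kinetochore count in U2OS was 3 in place of 6 at 0.01, and leaving out members with seed-like words, which leaves fewer genes, gave 3 of 4 in place of 5 of 6 for the spindle checkpoint in both lines and 2 of 3 in place of 4 of 6 for the fibrous corona in U2OS. Counts of the other gene lists were not recomputed. Subtracting medians turned the sign of values near 0, none of them called: KNTC1 (-0.00312, siMYBL1 in HCT116), CENPT (0.011, siMYBL2 in HCT116), BUB3 (0.041, siMYBL2 minus siMYBL1 in HCT116), CENPL (0.010) and MIS12 (0.012) for the same difference in U2OS, SPC25 (-0.022), ZWINT (-0.016) and SPDL1 (-0.026) for U2OS minus HCT116 after siMYBL2, and INCENP (-0.027) for U2OS minus HCT116 in the double knockdown. Of 276 log2 fold changes against siCtrl, 21 no longer passed at 0.01, and 2 with medians subtracted (CENPF after siMYBL2 and MIS18A in the double knockdown, both in HCT116). A base mean of at least 100 added 3: KNTC1 in the U2OS double knockdown, and CENPW in the double knockdown and TTK after siMYBL2, both in HCT116. No paired analysis was possible because the files hold no values per library, and for the same reason no replicate could be left out and the depth of single libraries is unknown.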
